A study of Spinacia oleracea with 24 samples.

Results

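Leaves of spinach given a high nitrogen supply were compared between the middle of the light period and the middle of the dark period. The comparison rests on 6 of the 24 messenger RNA libraries of the series, 3 from the middle of the light period (mid light) and 3 from the middle of the dark period (mid dark), chosen by their labels. The plants were Spinacia oleracea of the cultivar Space, 48 days old, grown in turface, a porous clay medium, with 200 ppm nitrogen (HN) and 8 h of light per day, and leaves were taken from 3 independent plants at each time on a single day. The labels do not say whether the same plants were sampled at the different times. The same times were sampled in plants given 50 ppm nitrogen (LN), and the ends of the light and dark periods were sampled at both supplies. Of the 25494 genes in the deposited table, 16679 had at least 1 FPKM in at least 3 of the 6 libraries and were tested. FPKM are fragments per kilobase of gene, scaled by the authors for library size. Changes below are differences of log2(FPKM + 1), mid light minus mid dark, ± the SE of the fit, which understates the change of weakly expressed genes. A gene is said to have risen or fallen only where limma gave a Benjamini-Hochberg adjusted p under 0.05 over all 16679 genes.

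The plant circadian clock is a network of transcription factors that repress each other in turn through the day. Morning factors such as LHY, daytime pseudo-response regulators and an evening complex follow each other, and light resets the sequence through photoreceptors. In leaves the clock and light together set the daily timing of photosynthesis genes, starch use, sugar signalling and growth. The roles given below come mostly from Arabidopsis, since spinach genes are named in the table by similarity to proteins of other species.

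The 6 libraries held 18757216 to 22104035 fragments assigned to genes. The third mid light library lay between the groups. Its Pearson correlation across genes with the mid dark libraries was 0.912 to 0.923, against 0.842 to 0.877 for the other 2 mid light libraries, while mid light libraries correlated at 0.935 to 0.952 with each other and mid dark libraries at 0.957 to 0.972. The deposited values summed to 879210 to 1008930 FPKM in mid light, against 669419 to 734281 FPKM in mid dark. Scaling each library to a common sum of FPKM (called a common sum below) therefore moves the median change of all genes to -0.37, and a common total of fragments moves it to -0.27. Counts of gene groups are given under both the deposited scaling and the common sum. The leaf identity of the samples was checked from marker genes of mesophyll, the green tissue of the leaf. They summed to 9.81%, 11.3% and 13.4% of all FPKM in mid light, against 6.45%, 8.72% and 7.35% in mid dark. Root markers summed to 16.5 to 22.5 FPKM in mid light, against 13.1 to 20.02 FPKM in mid dark.

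In all, 4356 genes passed the test, which is 26.1% of those tested. They split into 2306 genes that rose (13.8%) and 2050 that fell (12.3%). Without the third mid light library the counts were 2471 and 2185, or 27.9% in all. With a common sum they were 1002 (6.01%) and 4984 (29.9%), or 35.9% in all, so the scaling decides how many genes rose for each that fell. A change of at least 2-fold among the called genes was seen in 1961 (11.8%), of which 1210 rose (7.25%) and 751 fell (4.5%). Leaving out the first mid light library gave 2656 called genes, and leaving out the third mid dark library 2789. The median change was 1.03 among the genes that rose and -0.88 among those that fell. A change of at least 4-fold was seen in 287 genes that rose and 70 that fell, and one of at least 16-fold in 29 and 5. With genes divided into 4 equal classes by mean FPKM, the share called was 14.6%, 26.2%, 31.9% and 31.8% from the lowest class to the highest, and 23.7% to 27.1% on the 6 chromosomes. In the counts of gene groups below, the values with 1 library left out are the lowest and highest over the 6 libraries, named by replicate (light 1 to light 3 and dark 1 to dark 3) where 1 of them moves a count of at least 4 genes by over 1.5 times. Unless a sentence says otherwise, each gene named below as having risen or fallen also passed with any 1 of the 6 libraries left out and with a common sum. Such genes were picked by a test on these libraries. Where their groups are said below to be apart, this describes the values and adds nothing to the call. The share of all tested genes without overlap is not given. The 3 libraries per group share 1 day of sampling, so the spread between days was not measured. The p-values rest on the spread within groups, pooled over all 24 libraries of the series and not over the 6 compared alone. With only the 6 libraries in the fit 3986 genes were called, and with only the 12 HN libraries 5082. Each list's count as deposited is to be read against the 13.8% of all tested genes that rose and the 12.3% that fell. Each count with a common sum is to be read against the 6.01% that rose and the 29.9% that fell under that scaling. In whole leaves, fewer cells of a type and less RNA per cell cannot be told apart.

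The largest rise and the largest fall among all tested genes were clock genes, LNK1 and EFL1. Of 25 tested clock genes, 8 rose and 6 fell (7 and 8 with a common sum, 8 and 6 with 1 library left out), against 26.1% of all genes called in either direction. The LNK proteins are daytime coactivators that work with the REVEILLE factors in Arabidopsis. LNK1 (Spo07301; chromosome 4, 102730061 to 102737719) had 101, 116 and 114 FPKM in mid light, against 0.555, 0.191 and 0.748 FPKM in mid dark, a change of 6.23 ± 0.26 (limma adjusted p = 3.3e-12). LNK2 (Spo06774; scaffold SpoScf_00967, 26119 to 40409) had 122, 134 and 116 FPKM in mid light, against 0.792, 0.921 and 0.930 FPKM in mid dark, a change of 6.05 ± 0.24. Both were under 1 FPKM in each dark library and above 100 FPKM in each light library.

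LHY, a morning repressor of evening genes, was still high at mid light. LHY (Spo01117; chromosome 2, 59058703 to 59070547) had 249, 374 and 282 FPKM in mid light, against 18.8, 10.4 and 13.1 FPKM in mid dark, a change of 4.34 ± 0.30. Its lowest light value exceeded its highest dark value more than 10-fold. At the end of the dark period it averaged 1471 ± 492 FPKM (SD, n = 3) and at the end of the light period 11.9 ± 2.10 FPKM. The repressors that succeed LHY in the day are the pseudo-response regulators. PRR73 (Spo13065) had 66.5, 69.4 and 72.8 FPKM in mid light, against 14.6, 5.35 and 15.3 FPKM in mid dark, a change of 2.59 ± 0.27. An APRR5 gene (Spo01087) had 41.5, 46.1 and 34.5 FPKM in mid light, against 1.52, 1.64 and 2.25 FPKM in mid dark, a change of 3.89 ± 0.18. The groups did not overlap in either gene. The second APRR5 gene (Spo22291) had 13.4, 28.1 and 20.02 FPKM in mid light, against 0.886, 0.376 and 0.845 FPKM in mid dark, a change of 3.62 ± 0.45, and it averaged 102 ± 41.4 FPKM at the end of the light period. GIGANTEA (GI, Spo04360), an afternoon protein that links the clock to flowering, had 32.5, 56.6 and 41.4 FPKM in mid light, against 3.32, 3.06 and 6.29 FPKM in mid dark, a change of 3.11 ± 0.32. ADO1 (Spo24323), the ZEITLUPE-type F-box protein that targets clock proteins for breakdown, changed by 0.88 ± 0.21 and passed as deposited but not with a common sum (adjusted p = 0.11).

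Of the 6 clock genes that fell, 4 are members or relatives of the evening complex, which represses day genes at dusk in Arabidopsis. EFL1 (Spo11195; chromosome 1, 26460409 to 26460852) is a relative of ELF4, a subunit of the evening complex. It had 0, 0.813 and 0.418 FPKM in mid light, against 90.5, 73.0 and 75.1 FPKM in mid dark, a change of -5.87 ± 0.39 (limma adjusted p = 6e-09). APRR1 (Spo08124; chromosome 5, 11253535 to 11261005), also known as TOC1, an evening repressor of LHY, had 3.01, 3.37 and 4.04 FPKM in mid light, against 81.4, 62.9 and 93.9 FPKM in mid dark, a change of -4.15 ± 0.49. Every dark value of both genes was several times the highest light value. EFL3 (Spo10269) had 0.119, 0 and 0 FPKM in mid light, against 3.58, 5.97 and 8.51 FPKM in mid dark, a change of -2.69 ± 0.42. RVE1 (Spo19963), a MYB factor that promotes auxin synthesis in Arabidopsis, had 11.6, 13.8 and 15.6 FPKM in mid light, against 92.3, 47.1 and 60.5 FPKM in mid dark, a change of -2.16 ± 0.28. The groups were apart in both. BOA (Spo00124), a relative of the evening complex factor LUX, changed by -1.42 ± 0.31, and ELF3 (Spo14415), the scaffold of that complex, by -0.80 ± 0.19.

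The other 11 tested clock genes did not pass. RVE8 (Spo04754), which acts with the LNK proteins, averaged 199 ± 18.4 FPKM in mid light and 121 ± 24.4 FPKM in mid dark (SD, n = 3 each; adjusted p = 0.085). RVE8 did pass with only the 6 libraries (limma adjusted p = 0.033), those with a replicate block (0.026), only the 12 HN libraries (0.018) and array weights (0.034). ADO3 (Spo25748), also known as FKF1, changed by 0.30 ± 0.39 (adjusted p = 0.6), and EFL4 (Spo25307) by 0.17 ± 0.19. A second EFL1 gene (Spo21006) changed by -0.04 ± 0.20, so genes with the same name differed widely in their change. A weakly expressed second PRR73 gene (Spo04043) averaged 0.700 ± 0.360 FPKM in mid light and 1.22 ± 0.359 FPKM in mid dark, and passed with a common sum (limma adjusted p = 0.048). RVE5, RVE6, TIC, XCT, APRR2 and APRR8 lay between -0.39 and 0.41 on the log2 scale.

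**Figure D1:**
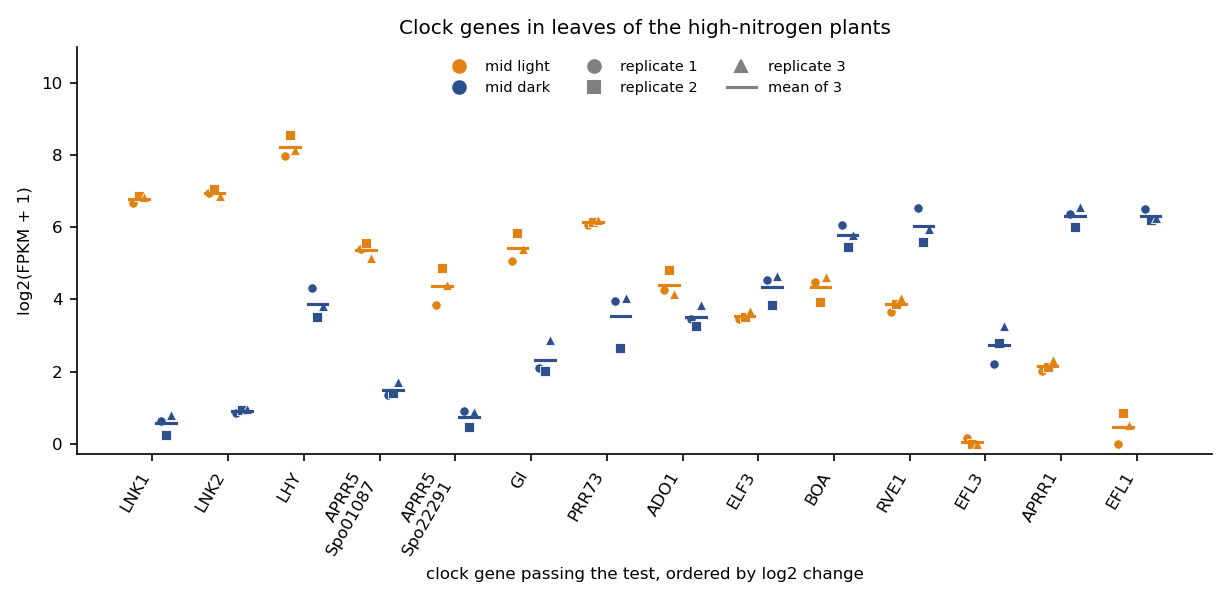
Expression of the 14 clock genes that passed the test, as log2(FPKM + 1), in each mid light library (left of each pair) and each mid dark library (right of each pair) of the high-nitrogen plants; marker shape gives the replicate and the short line the mean of 3. The 14 genes were chosen by the test on these same libraries, so the gap between the groups adds nothing to the calls. The log2 changes run from 6.23 (LNK1) to -5.87 (EFL1).

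The order of the 4 sampling times shows where in the day each clock gene stood. LNK1 averaged 79.5 ± 7.76 FPKM at the end of dark, 110.4 ± 8.25 at mid light, 22.2 ± 1.05 at the end of light and 0.498 ± 0.283 at mid dark (SD, n = 3 at each time). PRR73 averaged 22.5 ± 7.84, 69.5 ± 3.15, 63.7 ± 5.58 and 11.8 ± 5.56 FPKM in the same order of times. GI averaged 3.42 ± 1.94, 43.5 ± 12.2, 66.7 ± 6.61 and 4.22 ± 1.80 FPKM, with its highest mean at the end of light. APRR1 averaged 64.5 ± 23.8, 3.48 ± 0.522, 73.7 ± 6.69 and 79.4 ± 15.6 FPKM, and EFL1 2.19 ± 0.885, 0.410 ± 0.407, 62.2 ± 15.9 and 79.5 ± 9.53 FPKM. Both had their highest mean at mid dark, with a high mean already at the end of light. Over all genes that rose, 1622 (70.3%) had their highest mean of the 4 times at mid light, 456 at the end of light and 228 at the end of dark. Of the genes that fell, 1201 (58.6%) were highest at mid dark, 788 at the end of dark and 61 at the end of light. A gene that rose cannot be highest at mid dark, nor one that fell at mid light. Over all tested genes 23.4% were highest at mid light and 22.7% at mid dark.

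**Figure D2:**
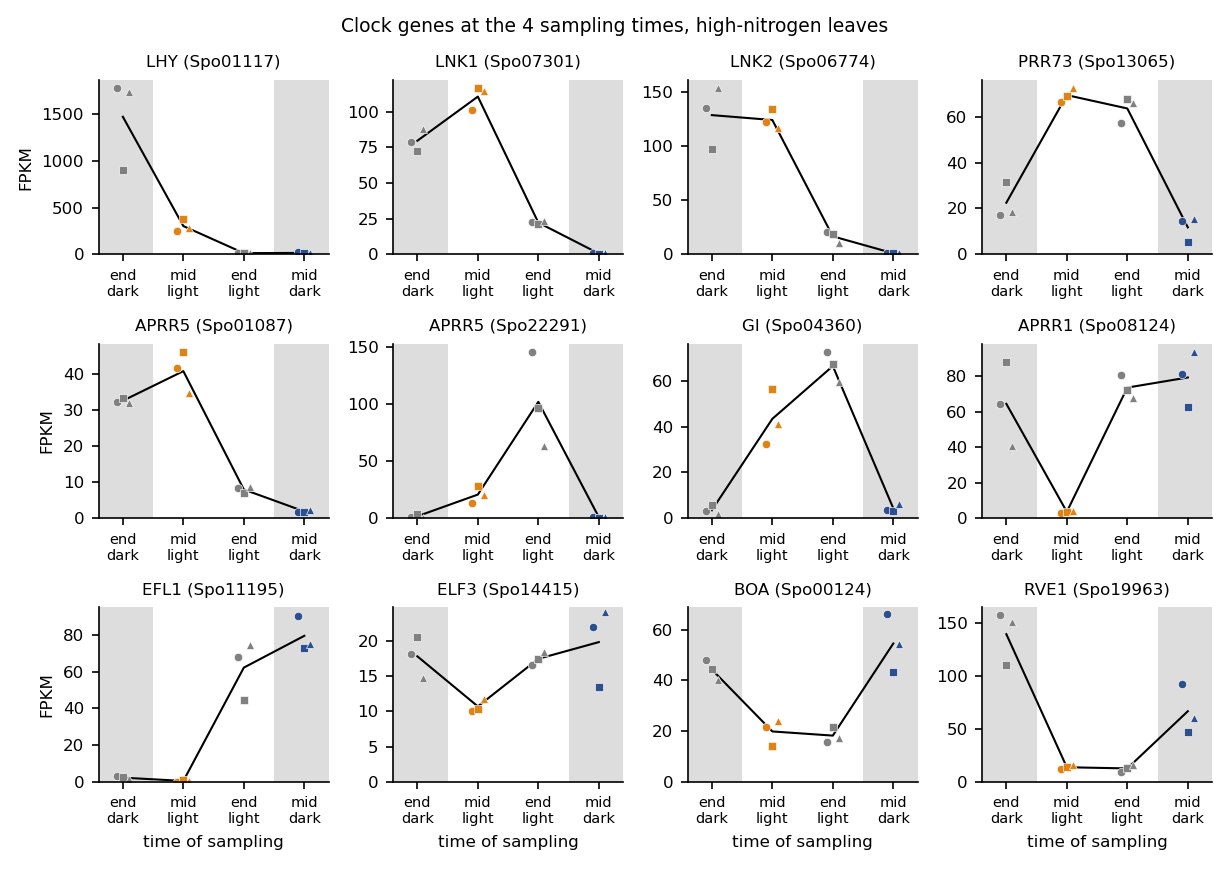
FPKM of 12 clock genes at the end of dark, mid light, end of light and mid dark in the high-nitrogen plants; points are single libraries, the line joins the means of 3, and grey bands mark the dark. LHY was highest at the end of dark (1471 ± 492 FPKM) and GI at the end of light (66.7 ± 6.61 FPKM).

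Genes that carry the clock's timing to flowering and growth moved in both directions. Of 20 tested members, 6 rose and 7 fell (5 and 8 with a common sum, 6 to 7 and 7 with 1 library left out). HD3A (Spo25173), the rice name of the mobile flowering signal FT, had 119, 145 and 21.4 FPKM in mid light, against 4.52, 1.22 and 3.45 FPKM in mid dark, a change of 4.27 ± 0.65. The third light library held the lowest of the light values, yet still well above each dark value. BBX24 (Spo19461), a B-box factor that restrains light signalling in Arabidopsis, had 84.4, 75.1 and 78.3 FPKM in mid light, against 7.06, 3.62 and 4.90 FPKM in mid dark, a change of 3.73 ± 0.23. CDF3 (Spo08108), a Dof repressor of CONSTANS, changed by 2.81 ± 0.25, and BBX19 (Spo05036) by 2.67 ± 0.20. COL16 (Spo05007), a CONSTANS-like factor, had 30.8, 24.3 and 36.1 FPKM in mid light, against 180.1, 144 and 159 FPKM in mid dark, a change of -2.38 ± 0.32. FLK (Spo07521), an RNA-binding promoter of flowering, changed by -1.03 ± 0.25 and COL9 (Spo24974) by -0.84 ± 0.13. COL2 (Spo12296), an abundant member, did not pass (0.55 ± 0.32, adjusted p = 0.22). Among all genes with a named protein, MIP1B (Spo03899), a B-box microprotein, had 97.5, 92.9 and 50.0 FPKM in mid light, against 0.230, 0.0540 and 0.582 FPKM in mid dark, a change of 5.94 ± 0.30. The demethylase JMJ30 (Spo15731), a clock-linked gene in Arabidopsis, had 2.04, 3.32 and 2.43 FPKM in mid light, against 46.7, 58.4 and 77.4 FPKM in mid dark, a change of -4.09 ± 0.65. The MYB-related factor SRM1 (Spo21699) had 1 of the 10 smallest adjusted p (4.7e-08, change 3.10 ± 0.24).

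Photoreceptors and their partners were split. Of 34 tested light signalling genes, 9 rose and 7 fell (4 and 14 with a common sum, 8 to 10 and 4 to 7 with 1 library left out, over 1.5 times off without light 1 or dark 1). COP1 (Spo13615), the ubiquitin ligase that removes light-promoting factors in the dark, had 12.2, 21.4 and 19.5 FPKM in mid light, against 3.47, 6.88 and 5.09 FPKM in mid dark, a change of 1.61 ± 0.24. PIF7 (Spo08210), a growth-promoting factor held in check by phytochrome, rose by 1.47 ± 0.26, whereas PIF1 (Spo08670) fell, with a change of -1.01 ± 0.22. The red-light receptor phytochrome C (PHYC, Spo26203) changed by -0.91 ± 0.21. Of the 2 UVR8 genes, coding for the UV-B receptor, Spo26189 changed by 1.05 ± 0.20 and Spo16104 by -0.92 ± 0.18.

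Light-harvesting antenna genes, whose proteins bind chlorophyll and feed energy to the photosystems, had rises and no falls as deposited. Of 19 tested members, 9 rose and 0 fell (7 and 1 with a common sum, 7 and 0 with 1 library left out), with a median change of 1.32 (0.90 with a common sum). Together they held 7.45%, 7.79% and 11.2% of summed FPKM in mid light, against 3.78%, 5.26% and 4.29% in mid dark. LHCB3 (Spo10927) had 5855, 5708 and 7531 FPKM in mid light, against 177, 340.2 and 186 FPKM in mid dark, a change of 4.81 ± 0.76. The minor antenna protein CP24 (Spo25138) had 2377, 2324 and 3218 FPKM in mid light, against 92.5, 161 and 106 FPKM in mid dark, a change of 4.47 ± 0.60. In both genes each light value was more than 10 times each dark value. The neighbouring antenna genes Spo03025 (scaffold Super_scaffold_211, 735348 to 736151) and Spo03024 (scaffold Super_scaffold_211, 743662 to 744465) changed by 4.90 ± 0.63 and 3.66 ± 0.74. CAB36 (Spo05009) had 13102, 11282 and 17761 FPKM in mid light, against 2000.5, 3625 and 2221 FPKM in mid dark, a change of 2.45 ± 0.67. LHCB4.1 (Spo26398) had 11610.4, 10628 and 14808 FPKM in mid light, against 4547, 5721 and 4485 FPKM in mid dark, and did not pass (1.32 ± 0.63, adjusted p = 0.13), though it did by limma with only the 6 libraries (adjusted p = 0.01), those with a replicate block (0.021) and only the 12 HN libraries (0.0098). LHCB5 (Spo01700) had 8525, 9298 and 11665 FPKM in mid light, against 8118, 10416 and 8368 FPKM in mid dark, and its sign depends on the scaling (0.13 as deposited and -0.30 with a common sum). Near-identical copies occur in this family and in others named below, and fragments may be divided between copies in ways that the sources do not state.

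Photosystem subunits and electron carriers turn the captured light into reducing power. Of 55 tested photosystem and electron transport genes, 8 rose and 1 fell (5 and 6 with a common sum, 5 to 6 and 0 to 1 with 1 library left out, over 1.5 times off without light 1, dark 1 or dark 3). The 14.5% that rose as deposited was near the 13.8% of all tested genes, while 1.82% fell, against 12.3%. PGR5 (Spo14852), needed for cyclic electron flow, had 268, 217 and 190.1 FPKM in mid light, against 27.0, 35.3 and 22.5 FPKM in mid dark, a change of 2.96 ± 0.28. The NDH subunit ndhT (Spo17345) changed by 1.86 ± 0.23, the electron carrier plastocyanin (PETE, Spo21430) by 1.42 ± 0.32, and the photosystem I subunit psaD (Spo20382) by 1.30 ± 0.30. Each of the 4 genes was apart between the groups. Of 31 tested chlorophyll synthesis genes, 4 rose and 0 fell (3 and 11 with a common sum, 3 to 4 and 0 with 1 library left out). GUN4 (Spo20278), which activates the first committed step, had 255, 395 and 243 FPKM in mid light, against 32.1, 37.3 and 39.9 FPKM in mid dark, a change of 2.97 ± 0.38. Protochlorophyllide reductase (PORA, Spo19511), the light-driven enzyme, had 962, 1072 and 1118 FPKM in mid light, against 228, 331 and 253 FPKM in mid dark, a change of 1.97 ± 0.33. The translocon component PTC52 (Spo15099) changed by 1.33 ± 0.19.

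Chlorophyll breakdown, the dismantling of the green pigment, was a short list with several rises. Of 9 tested members, 4 rose and 0 fell (4 and 0 with a common sum, 4 to 5 and 0 with 1 library left out). STAY-GREEN (SGR, Spo26879), which removes magnesium from chlorophyll, had 34.4, 8.59 and 7.46 FPKM in mid light, against 1.59, 2.10 and 1.62 FPKM in mid dark, a change of 2.36 ± 0.54. Pheophorbide a oxygenase (PAO, Spo20588), which opens the ring, had 100.5, 54.6 and 51.0 FPKM in mid light, against 18.9, 16.2 and 17.0 FPKM in mid dark, a change of 1.86 ± 0.34. Pheophytinase (PPH, Spo19983) changed by 1.53 ± 0.38 and the later reductase RCCR (Spo22917) by 1.15 ± 0.23. Thus 4 enzymes of this pathway were each higher in light.

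Among 32 tested genes of photoprotection and carotenoids, 10 rose and 0 fell (7 and 6 with a common sum, 5 to 11 and 0 to 1 with 1 library left out, over 1.5 times off without light 1, light 2 or dark 2). CCD4 (Spo23358), a dioxygenase that cleaves carotenoids, had 659, 801 and 408 FPKM in mid light, against 30.2, 20.03 and 15.3 FPKM in mid dark, a change of 4.77 ± 0.44. Phytoene synthase PSY2 (Spo00660), the entry enzyme of carotenoid synthesis, had 41.1, 32.6 and 7.34 FPKM in mid light, against 0, 0.0252 and 0.0247 FPKM in mid dark, a change of 4.49 ± 0.70. ELIP1 (Spo12385), an early light-induced protein that shields against excess light, had 51.4, 146 and 6.64 FPKM in mid light, against 1.33, 3.46 and 1.15 FPKM in mid dark, a change of 3.79 ± 0.88. The light values of ELIP1 differed widely, lowest in the third library, and voom gave an adjusted p of 0.055. The neighbouring ELIP gene Spo12386 had 176, 288 and 2.92 FPKM in mid light, against 0.299, 0.490 and 0.892 FPKM in mid dark, a change of 5.25 ± 1.44, but missed the threshold without the first light library (adjusted p = 0.065) or the second (0.072).

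Few carbon fixation genes passed. Of 32 tested Calvin cycle genes, 2 rose and 1 fell (2 and 4 with a common sum, 2 to 3 and 1 with 1 library left out). The aldolase FBA2 (Spo18028) had 134, 207 and 81.0 FPKM in mid light, against 1.56, 2.39 and 1.33 FPKM in mid dark, a change of 5.60 ± 0.53, while the Rubisco small subunit gene Spo21477 had 5312, 4802 and 4519 FPKM in mid light, against 5227, 5833 and 4953 FPKM in mid dark, and did not pass. CP12-1 (Spo17699), a regulator that binds Calvin cycle enzymes in the dark, changed by 1.35 ± 0.30. The translocator PPT2 (Spo23993), not a member of this list, moves phosphoenolpyruvate into plastids. It had 223, 207 and 170.2 FPKM in mid light, against 5.87, 6.67 and 4.89 FPKM in mid dark, a change of 4.88 ± 0.38. Of 23 tested photorespiration genes, 5 rose and 1 fell (2 and 2 with a common sum, 2 to 5 and 0 to 1 with 1 library left out, over 1.5 times off without light 1, light 2, dark 1, dark 2 or dark 3).

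Starch enzymes moved in both directions. Starch synthesis had 15 tested members, of which 4 rose and 1 fell (3 and 1 with a common sum, 3 to 4 and 0 to 1 with 1 library left out). Starch synthase SS3 (Spo04154) had 39.2, 48.5 and 26.7 FPKM in mid light, against 9.57, 9.64 and 9.25 FPKM in mid dark, a change of 1.86 ± 0.30. SS2 (Spo12258) changed by 1.52 ± 0.23 and the branching enzyme SBEI (Spo06399) by 1.23 ± 0.28. Of 32 tested breakdown genes, 6 rose and 4 fell (1 and 9 with a common sum, 3 to 6 and 2 to 4 with 1 library left out, over 1.5 times off without light 2 or dark 1). The beta-amylase BAM1 (Spo15691) had 30.8, 16.8 and 15.96 FPKM in mid light, against 5.66, 6.76 and 4.87 FPKM in mid dark, a change of 1.66 ± 0.30. BAM3 (Spo09720), the main beta-amylase of leaf starch at night in Arabidopsis, had 48.8, 21.8 and 47.6 FPKM in mid light, against 161, 128 and 157 FPKM in mid dark, a change of -1.97 ± 0.52, and missed the threshold without the second light library (adjusted p = 0.058). The 2 beta-amylases moved in opposite directions.

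Sucrose and sugar transport genes passed in both directions. Of 43 tested sucrose and sugar transport genes, 7 rose and 5 fell (3 and 8 with a common sum, 4 to 8 and 1 to 4 with 1 library left out, over 1.5 times off without light 1, light 2, dark 1, dark 2 or dark 3). In either direction 27.9% were called as deposited, near the 26.1% of all tested genes. SWEET17 (Spo17320), a vacuolar fructose channel, had 52.1, 47.5 and 27.3 FPKM in mid light, against 12.4, 13.9 and 8.08 FPKM in mid dark, a change of 1.78 ± 0.28. The vacuolar transporter MSSP2 (Spo15038) changed by 1.56 ± 0.20. Sucrose-phosphate synthase SPS1 (Spo09591), which makes the precursor of sucrose, had 65.6, 89.2 and 78.9 FPKM in mid light, against 223, 177 and 190.1 FPKM in mid dark, a change of -1.33 ± 0.24. Among 35 tested sugar signalling genes, 7 rose and 4 fell (3 and 9 with a common sum, 3 to 8 and 3 to 6 with 1 library left out, over 1.5 times off without light 1, dark 2 or dark 3). The auxin-repressed 12.5 kDa protein gene (Spo21332), a relative of dormancy-associated genes that mark low sugar in other plants, had 21.5, 11.4 and 136 FPKM in mid light, against 750.4, 620.3 and 650.2 FPKM in mid dark, a change of -4.32 ± 0.98. TSJT1 (Spo03551) had 735, 603 and 558 FPKM in mid light, against 125, 101 and 84.5 FPKM in mid dark, a change of 2.60 ± 0.30. Trehalose-phosphate phosphatase TPPD (Spo17896) changed by 1.41 ± 0.29.

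Nitrate transport was a list with many rises. Of 43 tested NRT, NPF and related genes, 15 rose and 1 fell (11 and 5 with a common sum, 12 to 16 and 0 to 3 with 1 library left out), with a median change of 0.45 (0.14 with a common sum), against 13.8% of all genes that rose and a median near 0 over all genes as deposited. Whether each carries nitrate was not checked. NPF7.3 (Spo23405), a xylem-loading nitrate transporter in Arabidopsis, had 28.2, 13.2 and 4.11 FPKM in mid light, against 0.319, 0.616 and 0.0864 FPKM in mid dark, a change of 3.28 ± 0.65. NPF6.2 (Spo05548), a leaf nitrate transporter, had 192, 107 and 51.5 FPKM in mid light, against 25.3, 13.8 and 11.2 FPKM in mid dark, a change of 2.61 ± 0.49. NPF2.13 (Spo25744), which moves nitrate out of old leaves, changed by 2.04 ± 0.33, and NPF2.11 (Spo20247), a glucosinolate importer in Arabidopsis, by 2.21 ± 0.41. The groups were apart in all 4, and the third light library was the lowest light sample in NPF7.3 and NPF6.2.

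Nitrogen assimilation builds nitrate and ammonium into amino acids. Of 23 tested members, 3 rose and 5 fell (2 and 6 with a common sum, 1 to 4 and 2 to 4 with 1 library left out, over 1.5 times off without light 1, light 2, dark 1 or dark 3). The ammonium transporter AMT1-3 (Spo21031) had 43.8, 75.6 and 90.6 FPKM in mid light, against 14.2, 13.7 and 13.6 FPKM in mid dark, a change of 2.20 ± 0.60. Glutamate synthase GLT1 (Spo02549), the NADH-dependent form, had 25.1, 35.3 and 27.4 FPKM in mid light, against 76.2, 73.9 and 94.8 FPKM in mid dark, a change of -1.45 ± 0.30, and its second copy Spo22161 changed by -1.80 ± 0.34. Nitrate reductase (NIA, Spo23607) had 292, 689 and 510.4 FPKM in mid light, against 664, 485 and 682 FPKM in mid dark, and did not pass (adjusted p = 0.55). Nitrite reductase (NIR, Spo21339) changed by -1.18 ± 0.37. Its call was lost without the first or second mid light library (adjusted p = 0.077 and 0.057) and without the first or the third mid dark library (0.074 and 0.059).

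Sulfate uptake and reduction, the route from sulfate to cysteine, also had more rises than falls. Of 23 tested members, 9 rose and 1 fell (6 and 2 with a common sum, 3 to 9 and 1 to 2 with 1 library left out, over 1.5 times off without light 1, light 2, dark 2 or dark 3). SULTR1;2 (Spo10413), a high-affinity sulfate importer, had 88.3, 82.0 and 17.0 FPKM in mid light, against 9.95, 2.26 and 2.72 FPKM in mid dark, a change of 3.32 ± 0.63. APS reductase APR1 (Spo13793), the controlling enzyme, had 244, 325 and 46.9 FPKM in mid light, against 32.5, 47.4 and 38.2 FPKM in mid dark. The ranges overlap through the third light library, the change was 1.97 ± 0.60, and the call was lost without the first or second light library (adjusted p = 0.099 and 0.12) or without the first or the third dark library (0.063 and 0.057). APS1 (Spo11735), the ATP sulfurylase before it, had 403, 273 and 106 FPKM in mid light, against 71.6, 62.6 and 97.7 FPKM in mid dark, a change of 1.57 ± 0.45, and lost its call without the first or second light library (adjusted p = 0.1 and 0.059) or the second dark library (0.056). Cysteine synthase cys12 (Spo18245), at the end of the pathway, fell (-0.95 ± 0.16). Across 8 sulfate genes the third light library stood at a median of 25.4% of the way from the mid dark mean to the mean of the other 2 light libraries.

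Heat shock chaperones, which keep proteins folded, rose by large amounts in a few members. Of 52 tested genes, 14 rose and 2 fell (6 and 10 with a common sum, 7 to 16 and 2 to 3 with 1 library left out, over 1.5 times off without light 1, light 2 or dark 3). With a common sum 6.01% of all tested genes rose and 29.9% fell. The median change of the list was 0.24 as deposited and -0.13 with a common sum. Over all tested genes the medians were -0.003 and -0.37, so the list lay above them under both scalings. HSP70-4 (Spo17157) had 80.8, 95.9 and 14.6 FPKM in mid light, against 0.250, 0.499 and 0.749 FPKM in mid dark, a change of 5.07 ± 0.73. HSC-2 (Spo12687) had 409.5, 654 and 89.1 FPKM in mid light, against 12.4, 8.44 and 13.1 FPKM in mid dark, a change of 4.58 ± 0.67. Another HSP70 gene (Spo06975) changed by 3.68 ± 0.58. In HSP70-4 and HSC-2 the third light library was the lowest of the light samples. BAG5 (Spo10603), a mitochondrial cochaperone, fell (-1.54 ± 0.30), and so did HSP70-17 (Spo01413; -1.45 ± 0.28). The very abundant HSC80 (Spo21597) had 665, 711 and 555 FPKM in mid light, against 449.6, 627 and 552 FPKM in mid dark, and did not pass. Of 13 tested heat stress factors, 4 rose and 2 fell (2 and 3 with a common sum, 3 to 5 and 0 to 2 with 1 library left out), and HSFB2A (Spo12958), a repressor type, changed by 1.79 ± 0.36.

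Flavonoid and phenylpropanoid genes, which make pigments and lignin precursors, gave rises and no falls as deposited. Of 55 tested members, 17 rose and 0 fell (10 and 4 with a common sum, 8 to 21 and 0 to 2 with 1 library left out, over 1.5 times off without light 1, light 2 or dark 3). F3GGT1 (Spo13837), not a member of this list, is named for a glycosyltransferase of anthocyanins in kiwifruit. It had 92.0, 46.8 and 24.4 FPKM in mid light, against 0.943, 0.364 and 0.637 FPKM in mid dark, a change of 4.89 ± 0.70. CYP75B137 (Spo11399), a flavonoid hydroxylase, had 102, 83.3 and 67.3 FPKM in mid light, against 17.6, 20.7 and 14.1 FPKM in mid dark, a change of 2.20 ± 0.32. A caffeoyl-CoA methyltransferase gene (Spo18075) changed by 2.16 ± 0.44.

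Redox genes passed in both directions. Of 103 tested members, 13 rose and 12 fell (6 and 30 with a common sum, 10 to 19 and 7 to 13 with 1 library left out, over 1.5 times off without light 1). As deposited 24.3% were called, near the 26.1% of all tested genes. Cytosolic ascorbate peroxidase APX1 (Spo03202), which removes hydrogen peroxide, had 621, 473 and 330.1 FPKM in mid light, against 96.6, 111 and 94.8 FPKM in mid dark, a change of 2.18 ± 0.34. Thioredoxin F (Spo25803), which activates Calvin cycle enzymes in light, changed by 1.44 ± 0.27. Monothiol glutaredoxins named GRXS1 fell. Spo09895 had 0.170, 0.779 and 1.95 FPKM in mid light, against 23.9, 27.4 and 43.5 FPKM in mid dark, a change of -4.11 ± 0.82. Its neighbours Spo09893 and Spo09898 changed by -2.68 ± 0.49 and -2.08 ± 0.49. The 6 genes of this cluster (chosen as a set after their values were seen) lie side by side on scaffold SpoScf_00769 between 239438 and 262956, and summed to 20.6, 11.2 and 22.7 FPKM in mid light, against 103, 126 and 188 FPKM in mid dark. Dark sums were at least 4 times each light sum.

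Defence genes differed gene by gene. Of 94 tested members, 10 rose and 7 fell (7 and 19 with a common sum, 5 to 12 and 4 to 6 with 1 library left out, over 1.5 times off without light 1, dark 2 or dark 3). With 18.1% called as deposited, this list lay below the 26.1% of all tested genes. A defensin gene (Spo27249) had 928, 659 and 336 FPKM in mid light, against 29.3, 19.6 and 12.6 FPKM in mid dark, a change of 4.86 ± 0.61. Another defensin, PDF2.5 (Spo14591), had 0.179, 0.136 and 1.95 FPKM in mid light, against 4.23, 31.0 and 16.4 FPKM in mid dark, a change of -3.18 ± 0.60. Members of 1 family thus stood far apart. Allene oxide cyclase (AOC, Spo24067), an enzyme of jasmonate synthesis, changed by 3.88 ± 0.85. The most abundant transcripts of all included jacalin-like lectins, sugar-binding proteins, in a cluster of 8 genes on scaffold SpoScf_00297 that was picked out after its values were seen. This cluster held 11.5%, 9.62% and 6.79% of summed FPKM in mid light, against 7.69%, 2.41% and 3.88% in mid dark, so the groups overlap. Its largest member, Spo21973, had 31862, 24029.8 and 17282 FPKM in mid light, against 15005, 4495 and 6706 FPKM in mid dark, a change of 1.62 ± 0.55, with adjusted p = 0.034. It missed the threshold with a common sum (0.066), without the first or second light library (0.13 and 0.082) and without the second or the third dark library (0.16 and 0.11).

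Among hormone genes, auxin members that moved include SAUR36 (Spo11416), a small auxin-up RNA, with 64.5, 64.2 and 24.8 FPKM in mid light, against 0.572, 0.996 and 0.1503 FPKM in mid dark and a change of 4.97 ± 0.64. SAUR32 (Spo22272) changed by 1.98 ± 0.33. Of 83 tested auxin genes, 6 rose and 5 fell (2 and 22 with a common sum, 3 to 7 and 1 to 9 with 1 library left out, over 1.5 times off without any 1 of the 6). Of 67 tested abscisic acid and PP2C genes, 18 rose and 8 fell (10 and 20 with a common sum, 12 to 17 and 4 to 8 with 1 library left out, over 1.5 times off without light 2, dark 1 or dark 3). A protein phosphatase 2C gene (Spo08588) had 13.1, 12.97 and 7.50 FPKM in mid light, against 1.14, 0.816 and 0.758 FPKM in mid dark, a change of 2.65 ± 0.30. The receptor PYL5 (Spo18840), whose kind inhibits phosphatases of this class when bound to abscisic acid, had 7.50, 7.99 and 13.7 FPKM in mid light, against 28.5, 33.7 and 32.3 FPKM in mid dark, a change of -1.64 ± 0.31. A second phosphatase, PP2C06 (Spo04790), changed by -1.49 ± 0.33, so the phosphatases did not move as 1 group. ASR1 (Spo20052), a stress and ripening protein, changed by 2.51 ± 0.56.

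Ethylene response factors, transcription factors named for that hormone, moved both ways. Of 60 tested ethylene genes, 14 rose and 6 fell (11 and 12 with a common sum, 9 to 13 and 4 to 6 with 1 library left out, over 1.5 times off without light 1). ERF1A (Spo25960) had 60.97, 51.6 and 70.001 FPKM in mid light, against 3.47, 2.30 and 4.37 FPKM in mid dark, a change of 3.84 ± 0.63, and its neighbour ERF104 (Spo25961) on chromosome 6 changed by 2.24 ± 0.57. ERF061 (Spo21370) had 10.2, 3.32 and 4.99 FPKM in mid light, against 66.5, 27.4 and 37.9 FPKM in mid dark, a change of -2.67 ± 0.63, and ERF9 (Spo20738), a repressor, changed by -1.61 ± 0.32. Of 39 tested gibberellin and cytokinin genes, 4 rose and 2 fell (2 and 6 with a common sum, 3 to 5 and 2 to 3 with 1 library left out). GASA1 (Spo18312), a gibberellin-responsive peptide gene, had 363, 220.3 and 144 FPKM in mid light, against 36.7, 18.3 and 16.6 FPKM in mid dark, a change of 3.28 ± 0.52. Of 38 tested NAC and MYB factors, 5 rose and 5 fell (3 and 11 with a common sum, 3 to 5 and 2 to 7 with 1 library left out, over 1.5 times off without light 1, dark 2 or dark 3). Called as deposited were 26.3%, near the 26.1% of all tested genes. MYB59 (Spo19100) changed by 2.53 ± 0.38 and NAC083 (Spo04911), a brake on vessel formation in Arabidopsis, by -2.51 ± 0.51.

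Ribosomal protein genes rarely passed as deposited, and most of the chloroplast ones fell with a common sum. Of 201 tested cytosolic ribosomal protein genes, 6 rose and 7 fell (2 and 64 with a common sum, 3 to 9 and 2 to 8 with 1 library left out, over 1.5 times off without light 1, light 2, dark 1, dark 2 or dark 3). They held 3.55% to 4.02% of summed FPKM in mid light, against 4.63% to 5.92% in mid dark. As deposited their sums overlapped, with 34312 to 35838 FPKM in mid light, against 33986 to 41548 FPKM in mid dark. Of 44 tested chloroplast ribosomal protein genes, 2 rose and 2 fell (0 and 31 with a common sum, 2 and 0 to 2 with 1 library left out), with a median change of -0.46 (-0.89 with a common sum). In the plastid transcription list, SIGE (Spo15990), a sigma factor for chloroplast RNA polymerase, changed by 1.94 ± 0.35 and SIGF (Spo02015) by -0.97 ± 0.24. Of 73 tested proteasome and autophagy genes, 17 rose and 1 fell (5 and 17 with a common sum, 7 to 18 and 0 to 3 with 1 library left out, over 1.5 times off without light 1 or dark 2). The lid subunit RPN11 (Spo02692) had 39.7, 34.1 and 27.4 FPKM in mid light, against 10.9, 14.1 and 13.6 FPKM in mid dark, a change of 1.31 ± 0.18. Of 81 tested genes of mitochondrial respiration, 13 rose and 4 fell (1 and 17 with a common sum, 3 to 20 and 2 to 3 with 1 library left out, over 1.5 times off without any 1 of the 6). Of 32 tested genes of amino acid breakdown, 3 rose and 6 fell (0 and 13 with a common sum, 1 to 3 and 1 to 8 with 1 library left out, over 1.5 times off without light 1, light 2, dark 1 or dark 3).

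Cell division and histone genes passed in both directions. Of 128 tested members, 9 rose and 19 fell (4 and 38 with a common sum, 5 to 9 and 7 to 13 with 1 library left out, over 1.5 times off without light 1, light 2, dark 1, dark 2 or dark 3). The share called as deposited was 21.9%, against 26.1% of all tested genes. Histone H3.3 (HTR4, Spo14439) had 5.44, 4.58 and 3.96 FPKM in mid light, against 17.6, 19.0 and 18.9 FPKM in mid dark, a change of -1.79 ± 0.51. TSO2 (Spo14733), an enzyme that makes DNA precursors, had 13.4, 14.0 and 9.68 FPKM in mid light, against 3.20, 3.82 and 2.82 FPKM in mid dark, a change of 1.63 ± 0.33, and KIN14A (Spo00500), a kinesin, changed by 1.95 ± 0.20. As a check on cell types, 58 tested markers of dividing cells had a median change of -0.75, of which 1 rose and 11 fell (0 and 20 with a common sum, 0 to 1 and 4 to 7 with 1 library left out, over 1.5 times off without any 1 of the 6), and they summed to 0.230% to 0.281% in mid light, against 0.384% to 0.576% in mid dark, as a share of all FPKM. Guard cell markers summed to 44.0 to 71.3 FPKM in mid light, against 118 to 139 FPKM in mid dark, and of 6 tested ones 1 rose and 2 fell (1 and 3 with a common sum, 1 to 2 and 2 to 3 with 1 library left out). The peptide gene EPFL9, described below, made up most of each sum, so the sum does not measure guard cells as such. Epidermis and wax markers summed to 0.330% to 0.349% in mid light, against 0.375% to 0.540% in mid dark, and of 32 tested ones 6 rose and 3 fell (4 and 6 with a common sum, 4 to 7 and 0 to 5 with 1 library left out). In FPKM their sums overlapped, with 2934 to 3327 in mid light, against 2508 to 3965 in mid dark. The FPKM sums of the markers of dividing cells also overlapped, with 2024 to 2836 in mid light, against 2820 to 4044 in mid dark. Phloem markers summed to 98.9 to 114 FPKM in mid light, against 46.3 to 55.3 FPKM in mid dark, and of 3 tested ones 1 rose and 0 fell (1 and 1 with a common sum, 1 and 0 with 1 library left out). Xylem and fibre markers summed to 35.3 to 43.5 FPKM in mid light, against 53.9 to 57.7 FPKM in mid dark, and of 10 tested ones 0 rose and 0 fell (0 and 3 with a common sum, 0 and 0 with 1 library left out). Flower and seed markers summed to 18.2 to 22.1 FPKM in mid light, against 27.0 to 39.3 FPKM in mid dark, and of 5 tested ones 0 rose and 0 fell (0 and 2 with a common sum, 0 to 1 and 0 to 1 with 1 library left out). Of 4 tested root markers, 0 rose and 0 fell (0 and 0 with a common sum, 0 and 0 with 1 library left out). Of 27 tested mesophyll markers, 9 rose and 0 fell (7 and 2 with a common sum, 7 and 0 with 1 library left out). These markers include the 19 antenna genes, which hold all 9 of the rises, so they add nothing to the antenna counts. The part of these marker differences in the results above was not tested.

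Cell wall enzymes moved in both directions. Of 123 tested members, 21 rose and 14 fell (14 and 30 with a common sum, 16 to 22 and 6 to 16 with 1 library left out, over 1.5 times off without light 1, light 2 or dark 3). Their called share of 28.5% as deposited was near the 26.1% of all tested genes. XTH23 (Spo00611), a xyloglucan-remodelling enzyme, had 20.8, 19.6 and 9.08 FPKM in mid light, against 1.63, 1.38 and 1.63 FPKM in mid dark, a change of 2.70 ± 0.59. FLA10 (Spo18855), a fasciclin-like arabinogalactan protein, had 196, 267 and 131 FPKM in mid light, against 27.8, 37.9 and 32.7 FPKM in mid dark, a change of 2.51 ± 0.63. Endoglucanase 17 (Spo24508) changed by -2.11 ± 0.49. In the epidermis and wax list, the wax enzyme CER1 (Spo18012) had 33.5, 37.2 and 35.8 FPKM in mid light, against 8.38, 13.6 and 8.77 FPKM in mid dark, a change of 1.73 ± 0.28, and KCS4 (Spo01316) changed by 2.22 ± 0.43. EPFL9 (Spo00582), the peptide that promotes stomata in Arabidopsis, had 28.4, 37.1 and 47.6 FPKM in mid light, against 114, 82.9 and 88.6 FPKM in mid dark, a change of -1.33 ± 0.26.

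Water channels and potassium channels move water and ions across membranes. Of 51 tested members, 16 rose and 4 fell (11 and 13 with a common sum, 11 to 14 and 1 to 4 with 1 library left out, over 1.5 times off without light 1, light 2, dark 1, dark 2 or dark 3). Aqp4 (Spo15458) had 20.7, 27.0 and 30.7 FPKM in mid light, against 2.18, 1.34 and 1.78 FPKM in mid dark, a change of 3.29 ± 0.51. The vacuolar channel AQP1 (Spo06391) had 2483, 1315 and 696 FPKM in mid light, against 349.8, 362 and 398 FPKM in mid dark, a change of 1.83 ± 0.42. Of 42 tested phosphate genes, 10 rose and 4 fell (1 and 7 with a common sum, 4 to 12 and 4 to 5 with 1 library left out, over 1.5 times off without light 1, light 2, dark 1, dark 2 or dark 3). The purple acid phosphatase genes were split, with PAP29 (Spo07994) changing by 1.83 ± 0.39 and PAP3 (Spo06348) by -2.45 ± 0.54. Of 32 tested fatty acid synthesis genes, 4 rose and 2 fell (1 and 6 with a common sum, 1 to 6 and 1 to 2 with 1 library left out, over 1.5 times off without light 1, light 2, dark 1, dark 2 or dark 3), and the thioesterase FATA (Spo09945) changed by 1.91 ± 0.24.

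**Figure D3:**
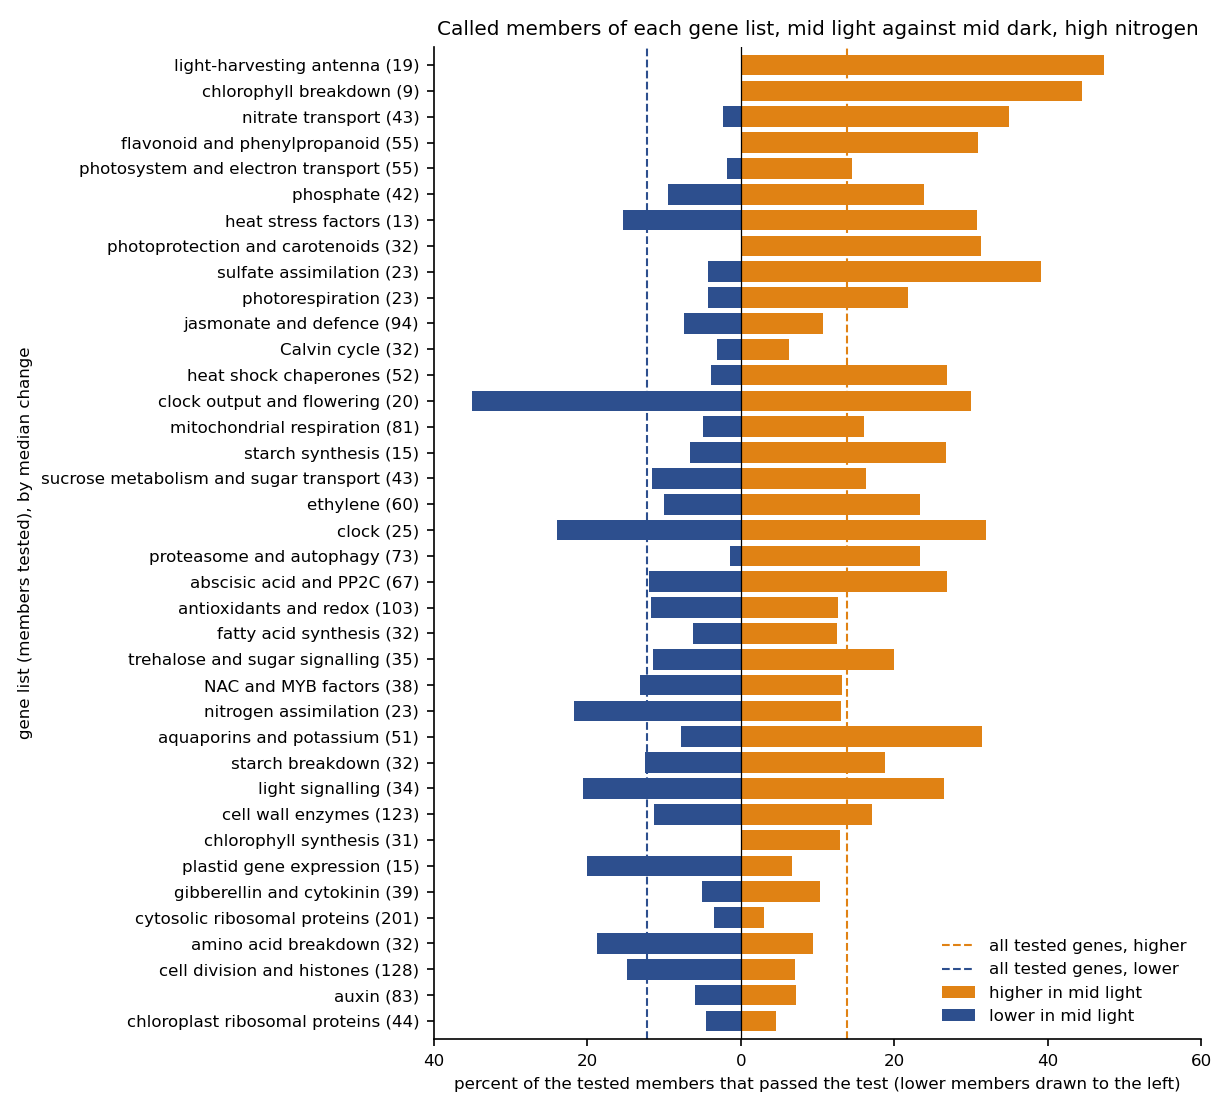
Share of the tested members of each gene list that passed the test, with genes higher in mid light drawn to the right and genes lower to the left; dashed lines mark the shares over all tested genes (13.8% higher, 12.3% lower). Under the deposited scaling, 47.4% of the antenna list rose and 56.0% of the clock list passed in either direction.

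The same contrast at low nitrogen uses 6 other libraries. It called 1404 genes (8.42%), with 783 higher (4.69%) and 621 lower (3.72%), but fewer, 490, without the first LN mid dark library, 578 without the second LN mid light library and 775 without the first LN mid light library. Of the 4356 genes called at high nitrogen, 3928 (90.2%) had the same sign at low nitrogen. Of them, 1009 were also called in the same direction, 23.2% of the HN calls and 71.9% of the LN calls, and 0 in the opposite direction. The test of the difference itself, the HN change minus the LN change, called 0 of 16679 genes by limma (smallest adjusted p 0.26), while 1931 genes (11.6%) had an unadjusted p under 0.05, and voom on recovered fragments called 0 with 1916. Without the first HN mid light library it called 1, with 1271 genes at an unadjusted p under 0.05, and that number was 1336 to 2655 without any other of the 12 libraries. So no gene is shown here to respond differently at the 2 supplies.

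Clock genes are given first. LNK1 changed by 6.23 at HN and 5.14 at LN, LHY by 4.34 and 3.44, and EFL1 by -5.87 and -5.82. The antenna gene Spo03024 changed by 3.66 at HN and 7.79 at LN (difference -4.13, limma adjusted p = 0.27). CCD4 changed by 4.77 at HN and 1.81 at LN (difference 2.96, limma adjusted p = 0.26). TPRP-F1 (Spo23731), a proline-rich wall protein gene, had 2.67, 6.75 and 13.9 FPKM in mid light, against 55.8, 135 and 166 FPKM in mid dark at HN, and 31.7, 13.6 and 15.5 FPKM in mid light, against 23.3, 36.9 and 13.6 FPKM in mid dark at LN.

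**Figure D4:**
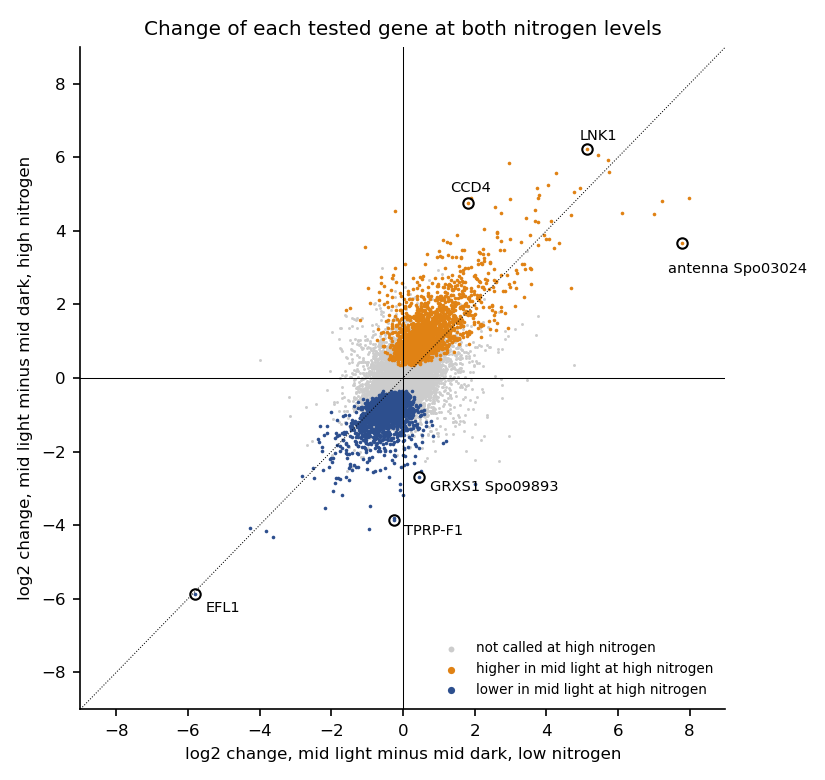
Log2 change, mid light minus mid dark, of each of the 16679 tested genes at high nitrogen (vertical axis) against low nitrogen (horizontal axis), with genes called at high nitrogen in colour and the dotted line marking equal change. LNK1 and EFL1 lie near the line, the antenna gene Spo03024 to the right of it and CCD4 above it; 0 genes passed the test of the difference.

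A second pair of light and dark samples at high nitrogen, the end of light and the end of dark, shares no library with the mid light and mid dark groups. This contrast called 5814 genes (34.9%), with 2750 higher at the end of light and 3064 lower. Of the 4356 genes, 1950 passed in the same direction, 44.8% of them and 33.5% of the calls at the ends of the periods. Another 325 passed in the opposite direction, 233 of those that rose and 92 of those that fell. LHY changed by -6.78 there, against 4.34 between mid light and mid dark, and APRR1 by 0.25 against -4.15. LHY thus had opposite signs in the 2 pairs of times. FBA2 changed by -0.18 and LHCB3 by 2.10 between the ends of the periods.

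The position of the third mid light library differed between gene lists. For genes called without it and changed by at least 2-fold, its place was taken as a percentage of the way from the mid dark mean (0%) to the mean of the other 2 light libraries (100%). Over 2503 genes the median place was 62.4%, and 816 genes were under 50%. Over 13 clock genes the median was 97.8%, and over 7 antenna genes 110.5%. It was 41.3% over 16 heat shock genes, with 10 under 50%, 45.1% over 22 flavonoid genes, with 14 under 50%, and 25.4% over 8 sulfate genes, with 7 under 50%. Placed in the same way, the first light library had a median of 107.5% over the 1451 such genes called without it. The second had 100.8% over 1602 genes called without it. Their 100% mark includes the third library, and the gene sets differ, so the 3 medians are not like for like. LHY changed by 4.38 without the third library, against 4.34 with it, HSP70-4 by 5.91 against 5.07, and SULTR1;2 by 4.08 against 3.32. The cause of the library's position was not tested.

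**Figure D5:**
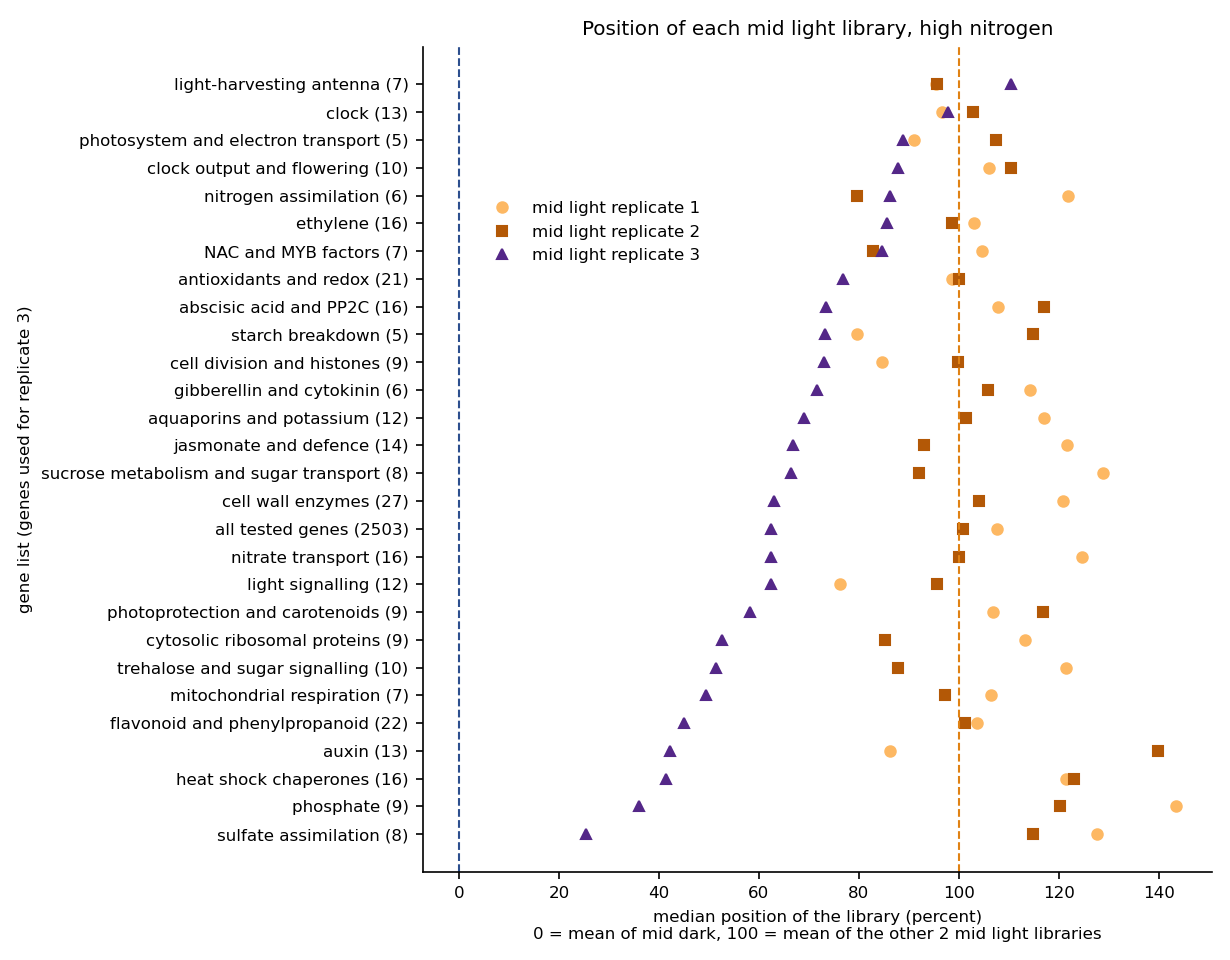
Median position of each mid light library over the genes of each list, as a percentage of the way from the mid dark mean (0%) to the mean of the other 2 light libraries (100%). Lists shown have at least 5 genes for replicate 3, and marker shape gives the replicate. Replicates 1 and 2 use the genes called without each of them, which can be fewer (2 sulfate genes for each). Their 100% mark includes replicate 3, so the replicates are not like for like. Replicate 3 lies near 100% for clock (97.8%) and antenna (110.5%) genes and near 25.4% for sulfate genes.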

How the data were processed

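The labels' protocols give poly-T selection, directional libraries made with dUTP and a NovaSeq X Plus sequencer. The submitters' processing notes list HISAT2, RSEM and DESeq2 (version 1.20.0) without saying what each did. The title of the series names Sp75 as the reference. The deposited values are FPKM per gene, scaled by the authors, per the file headers. Multiplied by the gene length, 100.0% of the values were whole multiples (tolerance 0.01) of a step that is fixed within a library, which gave back whole fragments, 18369094 to 25252705 per library over all 24. The steps match median-of-ratios size factors (largest deviation 0.0079%).

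Genes with at least 1 FPKM in at least 3 of the 6 libraries compared were tested on log2(FPKM + 1) by limma (version 3.58.1, R version 4.3.3). The fit held 8 group means over all 24 libraries and a variance trend, and genes were called at a Benjamini-Hochberg adjusted p under 0.05. The fits were also run on simulated data with known changes. The simulation had far fewer changed genes and no library lying between the groups, so it does not bear on those features of these data. Deposited coordinates and protein names were used, since 0 IDs matched the reference gene table, and no sequence was used here. The 46 gene lists, matched by protein name, and the members named were chosen with earlier results of these data known. Named were all tested clock genes, of each other list up to 4 rises and 4 falls and 2 abundant members with a mean of at least 5 FPKM, and the most changed, most significant and most abundant genes overall. Not every gene that this rule admits is printed. Markers of mesophyll, epidermis, guard cells, phloem, xylem, root, dividing cells and flower or seed checked the tissue. Alternatives were other pseudocounts, filters, scalings, libraries in the fit, moderation, array weights, a replicate block, voom on the recovered fragments, a 2-fold threshold and each library left out.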

Additional observations from a re-analysis of the deposited data

Results flagged for a closer look

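A gene for histone H1.2 (Spo02296), a linker histone that packs chromatin, was lower in all 3 HN mid light libraries than in all 3 HN mid dark libraries, and higher in all 3 LN mid light libraries than in all 3 LN mid dark libraries. It had 66.1, 68.9 and 33.3 FPKM in mid light, against 88.7, 98.6 and 156 FPKM in mid dark at HN, and 100.4, 134 and 81.4 FPKM in mid light, against 68.5, 76.3 and 77.1 FPKM in mid dark at LN. The change was -1.04 ± 0.36 at HN (limma adjusted p = 0.039) and 0.48 at LN (adjusted p = 0.45). The test of the difference between the supplies gave -1.52 with an unadjusted limma p of 0.0076 and an adjusted p of 0.35, which does not pass. The gene was picked by a rule on these same values. How many genes would separate in this way by chance was not tested. The HN call was lost without the first or the third HN mid light library (adjusted p = 0.053 and 0.17) and without the second or the third HN mid dark library (0.06 and 0.17). It was also lost with no filter on low values (0.051) and with the 6 libraries alone and a replicate block (0.058).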

How the results depend on the processing

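Of 138 genes named with values, 121 kept their direction and their side of the threshold under every alternative run. The HN mid light minus mid dark count of 4356 was within 1.5 times of that number under each alternative except a 2-fold threshold (1961) and the loss of 1 library (2656 to 4656). Its split into rises and falls moved with the scaling, to 1002 and 4984 with a common sum of FPKM and to 1258 and 4045 with a common total of fragments, which was chosen after seeing the data. A 2-fold threshold left 1210 rises and 751 falls, and leaving out 1 library gave 1445 to 2471 rises and 1211 to 2185 falls. For the LN change, 1404 calls became 490 to 1455 without 1 library (323 to 743 rises, 161 to 712 falls), 733 with a 2-fold threshold (496 rises, 237 falls) and 2506 with array weights (1301 and 1205). A common sum gave 473 LN rises and 1542 falls, and a common total of fragments 1244 falls. Without the second LN mid light library the LN count was 578, and without the first 775. The HN change minus the LN change had 0 calls, and 0 to 1 without 1 library. The end of light against the end of dark gave 2872 calls with a 2-fold threshold (1465 and 1407). Apart from leaving a library out and the scalings, the causes of these moves were not tested. Signs turned only in genes that did not pass. LHCB5 (Spo01700) changed by -0.30 with a common sum, -0.18 with a common total of fragments and -0.00125 to 0.24 without 1 library. HSC80 (Spo21597) gave -0.18 and -0.059 under these scalings, EFL4 (Spo25307) -0.25 and -0.13, and ADO3 (Spo25748) -0.039 with the common sum. The second EFL1 gene (Spo21006) ranged over -0.21 to 0.21 without 1 library. Voom put the changes of PSY2, EFL3, NPF7.3, PDF2.5 and an HSP70 gene (Spo06975) over 1.5 times farther from 0, since it adds no whole FPKM to low values. With the replicate number as a replicate block the HN count was 4187, and with the 6 libraries alone and the block, chosen after seeing the data, 4372. Same-number libraries of HN mid light and mid dark had correlated deviations of 0.24, 0.09 and 0.08, not all over 0.1, so the numbers were not taken to pair them. Each of the 6 libraries nevertheless correlated best with the library of its own number (other numbers reached at most 0.07), a hint from the data and not from the design. Over the 24 libraries the block changed the call of 0 of the 138 genes. With the 6 libraries alone and the block, 1 call was lost (histone H1.2, Spo02296) and 2 were gained (RVE8, Spo04754, and LHCB4.1, Spo26398). Precision is limited by 3 libraries per group, each of at least 18757216 fragments.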
